A study of Mus musculus with 8 samples.

Results

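The genes described here encode the enzymes that write, copy and remove methylation on cytosines of DNA. They are the methyltransferases Dnmt1, Dnmt3a and Dnmt3b, their cofactors Uhrf1 and Dnmt3l, the oxidases Tet1, Tet2 and Tet3, and the glycosylase Tdg. Members were all probes, other than control spots, that carry one of these 9 gene names in the scanner files, which gave 20 of 39429 probes for 9 of 30175 gene names. Of these, 19 probes were bright enough to be tested, and the 9 genes were among the 18116 tested.

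RNA came from E14 cells, a mouse embryonic stem cell (ESC) line grown without feeder cells in medium with LIF, 72 hours after infection with lentiviruses that express short hairpin RNAs. The 4 groups were control KD, with a hairpin against GFP, Tip60 KD, Hdac6 KD and double KD, in which both genes were targeted. KD stands for knockdown, Tip60, the product of the gene Kat5, acetylates histones, and Hdac6 belongs to the histone deacetylase family. Each group had 2 biological replicates, A and B, each hybridised to 1 array, and the comparison asks whether Hdac6 acts with the Tip60-p400 chromatin remodelling complex. All groups carried a hairpin virus, only 1 line was used, and the study chose for each gene the hairpin that worked best, so effects of a hairpin on other genes cannot be told apart from those of the knockdown.

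Dnmt1, brought to newly replicated DNA by Uhrf1, copies methylation onto the daughter strand, while Dnmt3a and Dnmt3b place it on unmethylated DNA with the help of Dnmt3l, which has no catalytic activity of its own. Tet enzymes oxidise methylcytosine step by step, and Tdg excises the later products so that base excision repair can restore plain cytosine. ESCs hold both activities at once, and they are known for growing without DNA methylation, whereas their differentiated progeny do not.

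Members were called in both directions. In Tip60 KD the Dnmt3a signal fell to 30.1% of control KD and the Tet1 signal to 70.1%, while the Tet2 signal rose 1.40-fold. In Hdac6 KD the signals of Dnmt3b and Uhrf1 rose 1.49-fold and 1.32-fold. In double KD the Dnmt3a signal was 50.6% of control KD and the Dnmt1 signal 86.7%, while the signals of Tet2 and Uhrf1 rose 1.65-fold and 1.49-fold. Not all of these calls were equally firm. That of Dnmt1 in double KD was lost under 17 of 22 alternative settings and that of Tet2 in Tip60 KD under 12. A further Tet1 probe had a log2 change of 0.09 in Tip60 KD.

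Counts of calls were no larger than among other genes in the single knockdowns. With limma at an adjusted p under 0.1, 3 of 9 members were called in Tip60 KD, 1 higher and 2 lower, against 39.7% of all genes (19.7% higher and 20.0% lower). In Hdac6 KD 2 members were called, both higher, against 28.9% of all genes (14.0% higher and 14.9% lower). In double KD 4 members were called, 2 in each direction, against 32.8% of all genes (15.9% higher and 16.9% lower). The median log2 change of the 9 members was 0.18, 0.16 and 0.10 in the 3 knockdowns, where that of all genes was 0.06, 0.03 and 0.05. These comparisons share the same 2 control arrays, and in RNA of whole cultures fewer cells of a type and less RNA per cell cannot be told apart.

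**Figure D1:**
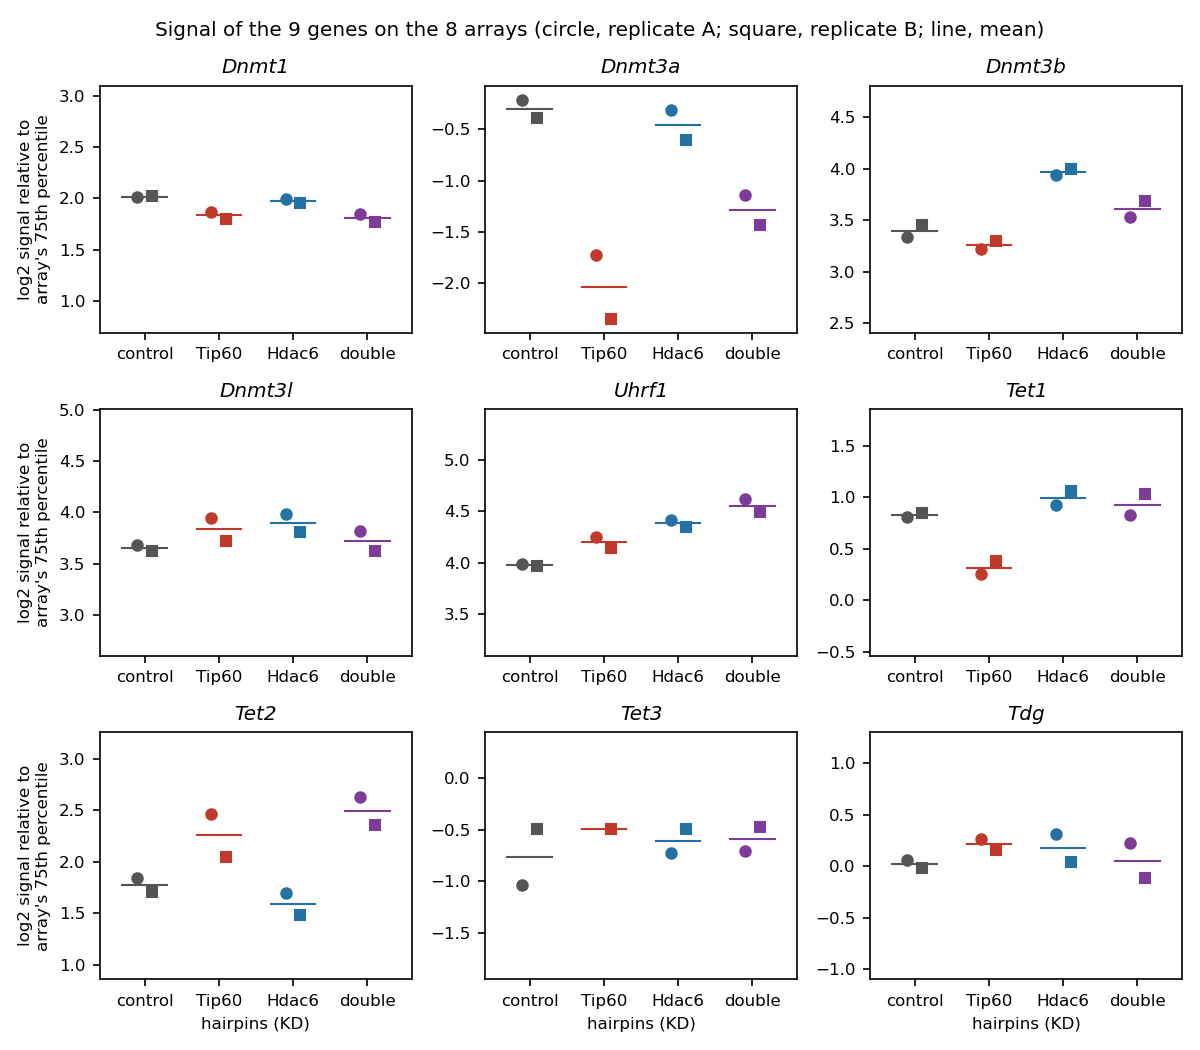
Each panel shows 1 gene, with the log2 signal relative to the array's 75th percentile on the y axis and the 4 groups of hairpins on the x axis. Circles are replicate A, squares replicate B and lines the mean, and every panel spans at least 2.4 log2 units on its own range. The Dnmt3a arrays of Tip60 KD lie at -1.72 and -2.35, far below control KD at -0.21 and -0.39, whereas Dnmt1 stays within 0.21 log2 units of control KD in its group means.

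Several members were measured by more than 1 probe, and some of these did not move together. The first 30 bases of the 60-base probes whose results are compared below are given in lower case, so that a reader can see which stretch of the transcript each value reports. Positions come from the scanner files and refer to mm9, and an annotation of that build (exon, intron or UTR) was not used here.

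Dnmt3a A_55_P2178084, chr12:3914320-3914379: atgttgatgtggaatcttactttcaaatgg
Dnmt3b A_55_P2130535, chr2:153513403-153513462: gtgcaaagatgacagatgcccagagtttac
Dnmt3b A_55_P2008874, chr2:153512991-153513050: tcaggtccccagaaccccctagttcctcat
Dnmt3b A_55_P1975903, chr2:153512098-153512157: tgtttgcccccttgaaggaccactttgcct
Uhrf1 A_55_P2035286, chr17:56462770-56462829: tgtgtctcatggaaactaaaccatttacta
Uhrf1 A_66_P120074, chr17:56451668-56452321: agctatacggcaacatcaggctcttgaatg
Tet1 A_55_P2122997, chr10:62274448-62274507: ctgtactcaaataacacacggcttctgttc
Tet1 A_51_P512172, chr10:62276042-62276101: gaatctacagacttctgtcccctgcaggct
Tet1 A_55_P2123002, chr10:62301856-62301915: taatcacatcaacgccgaggtcaggaatgc
Tet2 A_55_P2081303, chr3:133126751-133126810: gcttacttcctgagattttggctttgttta
Tet2 A_55_P2051405, chr3:133126905-133126964: acgcacagtgatgtatagttcactttacaa

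Genes on chromosomes 12, 2 and 17 are on the plus strand in this list, and those on chromosomes 10 and 3 on the minus strand. The second Uhrf1 probe covers 654 bases of the genome with 60 bases of sequence, so its sequence is split over the genome.

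Of the maintenance pair, Dnmt1 moved least. Its log2 signals were 2.01 and 2.02 with the GFP hairpin, 1.87 and 1.80 with that against Tip60, 1.99 and 1.95 with that against Hdac6, and 1.85 and 1.77 with both. All arrays with the Tip60 hairpin lay below all arrays of the other groups. The log2 change was -0.21 ± 0.07 (SE) in double KD, which passed the threshold (limma, adjusted p = 0.0974), and -0.18 ± 0.07 in Tip60 KD, which did not (adjusted p = 0.121). The double KD call was lost under 17 of 22 alternative settings, among them the removal of any 1 of the 8 arrays (log2 change from -0.25 to -0.16), with adjusted p from 0.00994 to 0.298. With the replicate letter as a block (the replicate block, which compares arrays on the same slide), the adjusted p in Tip60 KD was 0.0353. In Hdac6 KD the log2 change was -0.04 (95% interval -0.22 to 0.14).

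Uhrf1, which reads hemimethylated DNA and brings Dnmt1 to it, was called higher in Hdac6 KD and double KD. The brighter probe read 3.99 and 3.97 with the GFP hairpin, 4.26 and 4.15 with that against Tip60, 4.42 and 4.35 with that against Hdac6, and 4.62 and 4.50 with both. The groups did not overlap, and double KD was highest. The log2 change was 0.58 ± 0.08 (SE) in double KD (adjusted p = 0.00703), within the slides 0.63 and 0.53, and it held under all 22 alternatives. In Hdac6 KD it was 0.40 ± 0.08 (adjusted p = 0.0232), and this call was lost without Hdac6 KD array A (adjusted p = 0.111) and when a trend on probe GC content was removed (adjusted p = 0.138), with adjusted p from 0.00347 to 0.138 over the alternatives. Neighbours in this order were not separated by the test without a block, with adjusted p of 0.101 for Tip60 KD against control KD, 0.218 for Tip60 KD against Hdac6 KD and 0.336 for double KD against Hdac6 KD. With the replicate block these were 0.0201, 0.0521 and 0.0843.

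The dimmer Uhrf1 probe went the other way in Tip60 KD. It read -1.08 and -0.94 with the GFP hairpin, -1.60 and -1.35 with that against Tip60, -0.51 and -0.37 with that against Hdac6, and -0.37 and -0.36 with both. Tip60 KD was thus lowest on this probe and between control KD and Hdac6 KD on the other. In the fit over the 22594 single probes, where the share of probes called was 40.6% for Tip60 KD, 30.0% for Hdac6 KD and 33.8% for double KD, the dimmer probe fell by 0.46 (adjusted p = 0.0259) and the brighter probe rose by 0.22 (adjusted p = 0.0987) in Tip60 KD. Both probes rose in Hdac6 KD and in double KD, the dimmer one by 0.57 (adjusted p = 0.0204) and 0.64 (adjusted p = 0.012). The files assign the probes to different RefSeq transcripts of the gene, and which transcripts each probe measures was not tested.

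Among the de novo enzymes, Dnmt3a showed the widest range of the 9 genes, 1.73 log2 units between group means against a median of 0.43 over all genes. Its only probe read -0.21 and -0.39 with the GFP hairpin, -1.72 and -2.35 with that against Tip60, -0.31 and -0.60 with that against Hdac6, and -1.14 and -1.43 with both. The probe was well above background on all 8 arrays. The Tip60 KD values come near the floor of -2.71, the lowest value given to any spot, so the size of the fall is less certain. The 4 arrays with the Tip60 hairpin lay below the 4 without it, and within these the double KD arrays lay above the Tip60 KD arrays. The log2 change in Tip60 KD was -1.73 ± 0.23 (SE, adjusted p = 0.00374), was -1.51 and -1.96 within slides A and B, and remained past the threshold under all 22 alternatives. In double KD it was -0.98 ± 0.23 (adjusted p = 0.0313), and the call was lost without control KD array A (-0.89), without double KD array B (-0.84, adjusted p of 0.142 in both) and with no filter on dim probes (adjusted p = 0.107), with adjusted p from 0.00157 to 0.142 over the alternatives.

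The Hdac6 KD arrays of Dnmt3a overlapped control KD, with a log2 change of -0.16 (95% interval -0.73 to 0.42). The log2 difference of Tip60 KD from Hdac6 KD was -1.58 (adjusted p = 0.0109). Double KD was 0.75 higher than Tip60 KD (adjusted p = 0.19) and lower than Hdac6 KD by a log2 difference of -0.83 (adjusted p = 0.114), and neither passed the threshold. With the replicate block the adjusted p was 0.0171 and 0.00804.

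Of the 14128 other genes above the lowest measurable level on all 8 arrays, the 3 whose values ran most like those of Dnmt3a were Mccc2, a subunit of a carboxylase for leucine breakdown, Otud4, a deubiquitinase, and Enoph1, an enzyme of methionine salvage. Each had a Pearson r of 0.994 with Dnmt3a over the 8 arrays, which fall into 4 groups of 2 and share slides.

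Dnmt3b was called higher in Hdac6 KD on all 3 of its probes. The brightest probe read 3.34 and 3.45 with the GFP hairpin, 3.22 and 3.30 with that against Tip60, 3.94 and 3.995 with that against Hdac6, and 3.53 and 3.69 with both. The Hdac6 KD arrays were the highest pair and the Tip60 KD arrays the lowest. The log2 change in Hdac6 KD was 0.58 ± 0.09 (SE, adjusted p = 0.011), held under all 22 alternatives, and was 0.61 and 0.55 within the slides. The log2 difference from Hdac6 KD was -0.71 for Tip60 KD (adjusted p = 0.00776) and -0.36 for double KD (adjusted p = 0.089, lost under 16 of 22 alternatives, among them the removal of any 1 array, which gave -0.44 to -0.28, with adjusted p from 0.00942 to 0.425).

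In Tip60 KD the 3 Dnmt3b probes gave different answers. Their order by change was that of their place in the transcript and also that of their brightness. From the 3′ end on, their mean log2 signals in control KD were 3.39, 2.65 and 1.01. The probe nearest the 3′ end, at base 4255 of the transcript, had a log2 change of -0.14 (adjusted p = 0.328), the probe at base 3843 rose by 0.28 (adjusted p = 0.0743), and the probe at base 2950 rose by 0.72 (adjusted p = 0.00201). The last of these read 0.96 and 1.07 with the GFP hairpin, 1.75 and 1.71 with that against Tip60, 2.04 and 2.14 with that against Hdac6, and 1.61 and 1.63 with both. On this probe control KD was lowest and no 2 groups overlapped. The same order of the probes held in Hdac6 KD, with rises of 0.58, 0.81 and 1.07, and in double KD, with log2 changes of 0.22 (adjusted p = 0.148), 0.34 (adjusted p = 0.0463) and 0.61 (adjusted p = 0.00505). The 3′-most probe holds 38.3% GC and the others 55.0% and 53.3%. Over all 22594 probes the change in Tip60 KD had a Spearman rho of 0.212 with probe GC content across probes, which are not independent, and the median log2 change was -0.03 for probes of at most 40% GC against 0.17 for those above 50%. Whether this trend, brightness or place in the transcript takes part in the difference between the Dnmt3b probes was not tested. Averaged over its probes, Dnmt3b rose by 0.28 in Tip60 KD (adjusted p = 0.0469), the opposite sign from the brightest probe.

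Dnmt3l, the catalytically inactive partner, was not called in any comparison. Its log2 signals were 3.68 and 3.62 with the GFP hairpin, 3.94 and 3.73 with that against Tip60, 3.98 and 3.81 with that against Hdac6, and 3.82 and 3.63 with both. All knockdown arrays read at or above the lower control array, and double KD overlapped control KD. The largest log2 change was 0.24 in Hdac6 KD (95% interval -0.05 to 0.54, adjusted p = 0.225), for which the replicate block gave an adjusted p of 0.0255. For Tip60 KD, at 0.18, the adjusted p was 0.33, and 0.053 with the block.

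**Figure D2:**
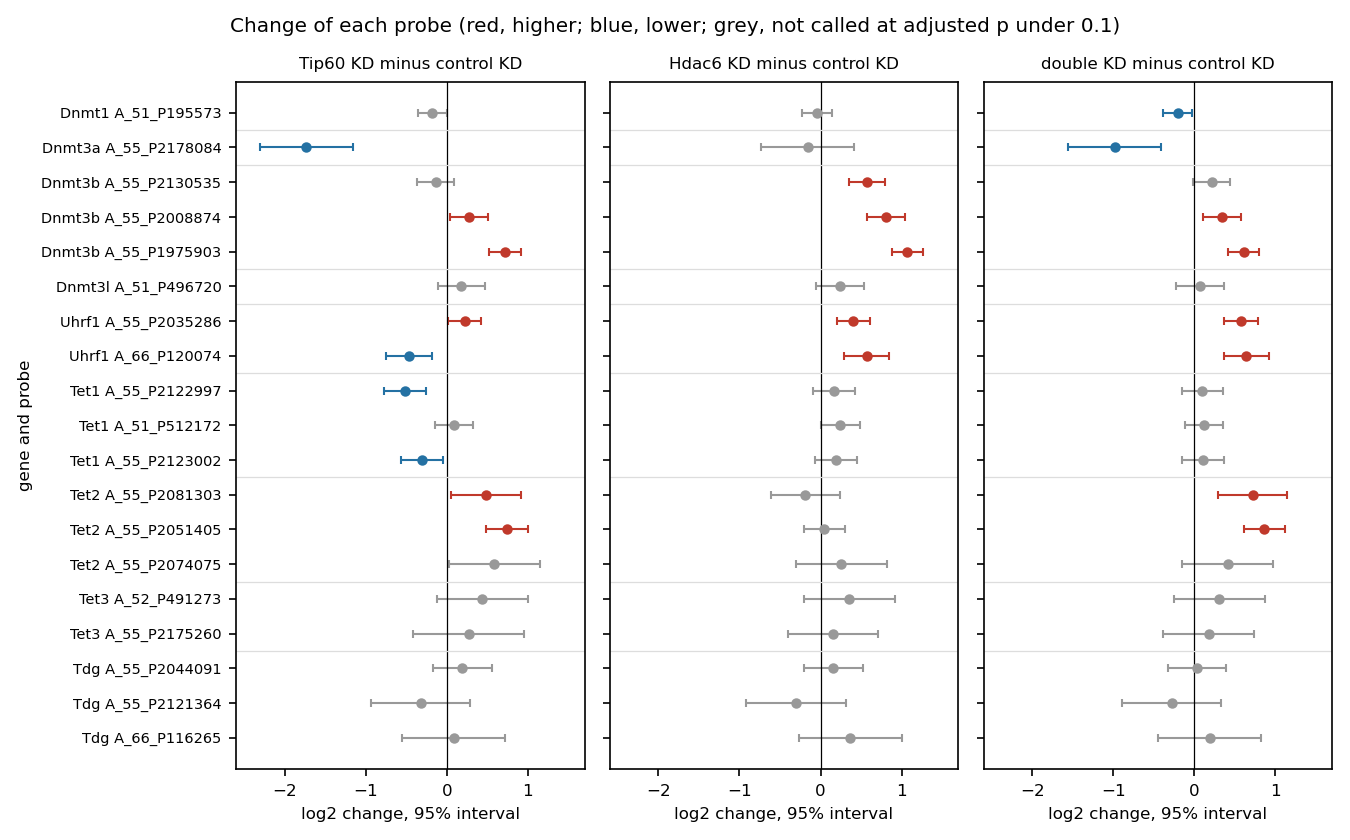
The x axis gives the log2 change of each tested probe against control KD with its 95% interval, in 1 panel a knockdown, and the y axis lists gene and probe. Red points were called higher and blue points lower at an adjusted p under 0.1 over single probes, and grey points were not called. The Uhrf1 probes lie on both sides of 0 in Tip60 KD, at 0.22 and -0.46, and the Dnmt3b probes run from -0.14 to 0.72.

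Of the oxidases, Tet1, the main Tet enzyme of ESCs, was lowest in Tip60 KD. The brightest probe read 0.81 and 0.85 with the GFP hairpin, 0.25 and 0.38 with that against Tip60, 0.93 and 1.06 with that against Hdac6, and 0.83 and 1.03 with both. Both Tip60 KD arrays lay below the 6 others, among which double KD overlapped control KD. The log2 change in Tip60 KD was -0.51 ± 0.10 (SE, adjusted p = 0.0143), within the slides -0.56 and -0.47, and 21 of 22 alternatives kept the call. The exception was the mean of all probes of the gene (-0.24, adjusted p = 0.102).

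The other Tet1 probes did not all share this fall. The probe that lies farthest upstream fell by 0.30 in Tip60 KD (adjusted p = 0.0788), whereas the probe between them had a log2 change of 0.09 (95% interval -0.14 to 0.33). Against Hdac6 KD, Tip60 KD was lower on the brightest probe by a log2 difference of -0.68 (adjusted p = 0.0118). Double KD was 0.61 higher than Tip60 KD (adjusted p = 0.0746), a call lost under 15 of 22 alternatives with adjusted p from 0.00932 to 0.361, among them each of the 8 fits that left out 1 array (0.51 to 0.71). The other Tet1 probes gave 0.03 (adjusted p = 0.982) and 0.41 (adjusted p = 0.125), and the mean of all probes 0.35. Tet1 was the only member called in that comparison, where 3.71% of all genes were.

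Tet2 moved opposite to Tet1 in Tip60 KD. The brightest probe read 1.84 and 1.71 with the GFP hairpin, 2.47 and 2.05 with that against Tip60, 1.69 and 1.49 with that against Hdac6, and 2.63 and 2.36 with both. The 4 arrays with the Tip60 hairpin lay above the 4 without it. The second probe, which lies close by, also separated these sets of 4 arrays, with 0.59 and 0.54 with the GFP hairpin, 1.39 and 1.23 with that against Tip60, 0.71 and 0.52 with that against Hdac6, and 1.49 and 1.38 with both.

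On the brightest Tet2 probe the log2 change was 0.72 ± 0.17 (SE) in double KD (adjusted p = 0.0328) and 0.48 ± 0.17 in Tip60 KD (adjusted p = 0.0881). The Tip60 KD call was lost under 12 of 22 alternatives, among them the removal of any array but Tip60 KD array B (0.28 without Tip60 KD array A), with adjusted p from 0.00247 to 0.314. The double KD call was lost without either control array (0.79 without A, 0.65 without B), without double KD array A (0.58) and with no filter, with adjusted p from 0.00131 to 0.14. The second probe, which varied less between replicates, rose by 0.74 in Tip60 KD (adjusted p = 0.00389) and by 0.87 in double KD (adjusted p = 0.00405), and its log2 change in Hdac6 KD was 0.05 (95% interval -0.21 to 0.30). Double KD lay 0.91 above Hdac6 KD on the brightest probe (adjusted p = 0.0465), and Tip60 KD lay 0.67 above it (adjusted p = 0.0538). The first was lost without either array of double KD or Hdac6 KD (0.77 to 1.04, adjusted p over the alternatives from 0.00309 to 0.229), and the second without Tip60 KD array A (0.46) or Hdac6 KD array A or B (0.77 and 0.57, adjusted p over the alternatives from 0.00228 to 0.229). A dimmer probe farther upstream was not called in any knockdown, with log2 changes of 0.59 (adjusted p = 0.104), 0.25 and 0.41.

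Tet3 was dim, and no call was made. Its brightest probe read -1.04 and -0.49 in control KD, -0.73 and -0.49 in Hdac6 KD, -0.71 and -0.47 in double KD, and -0.50 on Tip60 KD array B, while the spot on array A carried an outlier mark and was left out. The groups overlapped. The log2 changes were 0.27, 0.15 and 0.18 in the 3 knockdowns (adjusted p of 0.702 in Hdac6 KD and 0.634 in double KD). The first sets 1 Tip60 KD array against both control arrays, and within slide B the difference was -0.003. A second probe gave 0.44, 0.36 and 0.31, none called, and the remaining one lay at the floor of -2.71 on all 8 arrays and was not tested.

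Tdg, the glycosylase, was not called on any of its 3 probes. The brightest read 0.06 and -0.01 with the GFP hairpin, 0.27 and 0.16 with that against Tip60, 0.32 and 0.05 with that against Hdac6, and 0.22 and -0.11 with both. Its log2 changes were 0.19, 0.16 and 0.03 (adjusted p of 0.405, 0.536 and 0.907), with 95% intervals that lay within -0.33 and 0.55. The other probes gave -0.32 and 0.09 in Tip60 KD, and their values ran against each other over the 8 arrays (Pearson r -0.877, a description). In every group the first of these read higher on array A than on array B, and the second lower. In control KD the first read -0.46 and -0.99 and the second -2.04 and -1.51, so this correlation went with the replicate letter.

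Comparisons between knockdowns gave the following counts of members. Between double KD and Hdac6 KD 2 of 9 were called, Tet2 higher and Dnmt3b lower, against 10.1% of all genes. Between Tip60 KD and Hdac6 KD 4 were called, Tet2 higher and Dnmt3a, Dnmt3b and Tet1 lower, against 23.5% of all genes. The calls of Dnmt3a, Dnmt3b and Tet1 in this last comparison held under all 22 alternatives, and that of Tet2 under 14. The interaction, by how far the double KD change exceeds both single changes added together, was called for 0 of 9 members by limma, against 22.0% of all genes, and 2 had an unadjusted p under 0.05. These were Dnmt3a, at 0.91 ± 0.33 (SE, adjusted p = 0.133), and Tet1, at 0.45 ± 0.15 (adjusted p = 0.105). Among single probes, where 23.3% of all were called for the interaction, both dimmer Dnmt3b probes were called lower, at -0.74 (adjusted p = 0.0219) and -1.18 (adjusted p = 0.00714), and the dimmer Uhrf1 probe higher, at 0.54 (adjusted p = 0.0789). The brightest probes of these genes gave -0.22 and -0.05 and were not called, and the mean of the Dnmt3b probes gave -0.71 (adjusted p = 0.0181, range over the alternatives 0.0181 to 0.59). With the replicate block, 6 members passed, among them Dnmt3a (adjusted p = 0.00969) and Tet1 (adjusted p = 0.0124), against 47.1% of all genes.

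Paired by replicate letter, the arrays gave more calls throughout. The replicate block called 7 of 9 members for Tip60 KD, 4 for Hdac6 KD and 5 for double KD, where 60.9%, 53.0% and 55.5% of all genes were called. Log2 changes were the same in both fits except for Tet3, which lacks 1 array and whose change in Tip60 KD was 0.10 with the block and 0.27 without.

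The targeted genes followed the labels. The log2 signal of Kat5 was 1.34 and 1.37 with the GFP hairpin, 0.00 and 0.01 with that against Tip60, 1.52 and 1.53 with that against Hdac6, and -0.11 and 0.20 with both, and that of Hdac6 was 2.21 and 2.18, 1.74 and 1.77, -0.28 and -0.32, and 0.30 and 0.34 in the same order. Hdac6 was thus also lower in Tip60 KD, by a log2 change of -0.44 (adjusted p = 0.00622), and less reduced in double KD (-1.87) than in Hdac6 KD (-2.49). Between 50.9% and 94.4% of spots were well above background on the 8 arrays, and control KD was lowest within each replicate letter. Among the A arrays it had 72.5%, with 61.0 intensity units of background subtracted, against 92.1% to 94.4% and 37.2 to 39.4 in the knockdowns. Among the B arrays it had 50.9% and 114.3, against 62.9% to 93.6% and 41.4 to 89.0. Background thus differed between control KD and every knockdown, so effects of the 2 cannot be fully told apart. With the same background on every array, 3, 3 and 4 members passed against control KD in the 3 knockdowns, not all the same ones as before.

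All 8 markers of ESCs were tested, of which 3 rose and 0 fell in Tip60 KD, 2 rose and 0 fell in Hdac6 KD, and 3 rose and 1 fell in double KD. Of all genes 19.7%, 14.0% and 15.9% rose and 20.0%, 14.9% and 16.9% fell in these comparisons. The same shares stand beside the counts of the other markers below. Pou5f1, the core pluripotency factor, rose by 1.01 in Tip60 KD (adjusted p = 0.00277) and Tdgf1 by 0.59 in Hdac6 KD (adjusted p = 0.0114), while Sox2 fell by 0.35 in double KD (adjusted p = 0.0712, lost under 12 of 22 alternatives, range 0.00676 to 0.273). Many markers of other cells were too dim to be tested, including Fgf5, T and Cer1 of the primed epiblast, Gata6 of primitive endoderm and Cdx2 of trophectoderm. Of those tested, 1 of 5 neural markers rose in Tip60 KD, Tubb3, a neuronal tubulin, by 1.96 (adjusted p = 0.00075). For fibroblasts 2 of 4 rose, led by Col1a1 (0.98, adjusted p = 0.00662), for trophectoderm Krt8 (1.28) and Eomes (0.84) rose and Krt18 fell by 0.24, and neither of 2 for primed epiblast and for primitive endoderm passed. Pou3f1 of the primed epiblast rose by 0.47 in Hdac6 KD (adjusted p = 0.0945) and by 0.54 in double KD (adjusted p = 0.0593, lost under 8 of 22 alternatives, range 0.00383 to 0.223), the groups in which Uhrf1 was called higher, and its part in that result was not tested. The summed signal of the 5 neural markers, in units of the 75th percentile, was 2.32 and 2.54 with the GFP hairpin, 4.41 and 4.77 with that against Tip60, 2.68 and 3.03 with that against Hdac6, and 4.07 and 4.42 with both. Tubb3 alone accounted for most of the difference, with log2 signals of -0.42 and -0.74 in control KD against 1.35 and 1.41 in Tip60 KD, and Pax6 and Neurod1 lay at the floor on 6 of 8 arrays each. The sum was higher on the same 4 arrays on which Dnmt3a was lower and Tet2 higher, and its part in those results was not tested. For S phase, when Dnmt1 and Uhrf1 are normally made, 17 of 18 genes were tested, and 3 rose and 4 fell in Tip60 KD, 2 rose in Hdac6 KD, and 2 rose and 3 fell in double KD, beside 19.7% and 20.0%, 14.0% and 14.9%, and 15.9% and 16.9% of all genes. Ccne1, the cyclin of S phase entry, rose by 1.02 in Hdac6 KD (adjusted p = 0.0064) and Gins2, of the replicative helicase, by 0.73 in Tip60 KD, where Rrm2, a subunit of ribonucleotide reductase, fell by 0.82 and Mcm4, another helicase subunit, by 0.74.

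Of 11 genes whose proteins help to keep or protect methylation, 4 rose and 1 fell in Tip60 KD, 3 rose and 1 fell in Hdac6 KD, and 3 rose and 1 fell in double KD, where 19.7%, 14.0% and 15.9% of all genes rose and 20.0%, 14.9% and 16.9% fell. Zfp57, a zinc finger protein that keeps imprinted regions methylated, read 1.63 and 1.62 with the GFP hairpin, 3.53 and 3.70 with that against Tip60, 2.29 and 2.50 with that against Hdac6, and 3.17 and 3.35 with both. No groups overlapped. It rose by 1.99 ± 0.12 (SE) in Tip60 KD (adjusted p = 0.000612), while the rises of 0.77 with the Hdac6 hairpin and 1.63 with both had adjusted p of 0.00949 and 0.00146.

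Prdm14, which holds back the de novo methyltransferases in naive ESCs, read -0.12 and -0.31 with the GFP hairpin, 0.93 and 0.66 with that against Tip60, 0.36 and 0.16 with that against Hdac6, and 0.76 and 0.57 with both. Control KD was lowest, and the rises were 1.01 (adjusted p = 0.00397), 0.48 (adjusted p = 0.0633) and 0.88 (adjusted p = 0.00902). Dppa3, a maternal protein that shields DNA from Tet3 oxidation and can restrain Uhrf1, read 1.08 and 0.84 with the GFP hairpin, -0.37 and -0.62 with that against Tip60, 0.00 and -0.47 with that against Hdac6, and 0.05 and -0.38 with both. Every knockdown array lay below both control arrays, and it fell by 1.45, 1.19 and 1.13 (adjusted p of 0.00551, 0.0173 and 0.0176). Zfp57, Prdm14 and Dppa3 kept their Tip60 KD calls under all 22 alternatives.

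Of the readers of methylated DNA, 5 of 8 fell and 1 rose in Tip60 KD, where 20.0% of all genes fell and 19.7% rose, and their median log2 change was -0.49 against 0.06 for all genes. The number that fell lay between 2 and 5 over the 22 alternatives. Mbd1 fell by 1.00 (adjusted p = 0.002) and Zbtb33, also called Kaiso, by 0.84 (adjusted p = 0.00425). In Hdac6 KD 2 rose and 2 fell, against 14.0% and 14.9% of all genes. Mbd2, a subunit that brings the NuRD deacetylase complex to methylated DNA, read 0.22 and -0.01 in control KD and 1.30 and 1.25 in Hdac6 KD, a rise of 1.17 (adjusted p = 0.0029), and Mbd3, its relative that binds methylated DNA poorly, rose by 0.44 (adjusted p = 0.0289). Mbd2 also lay above control KD in Tip60 KD, at 0.92 and 0.81, and in double KD, at 0.82 and 0.69. In double KD 1 reader rose and 3 fell, against 15.9% and 16.9% of all genes.

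**Figure D3:**
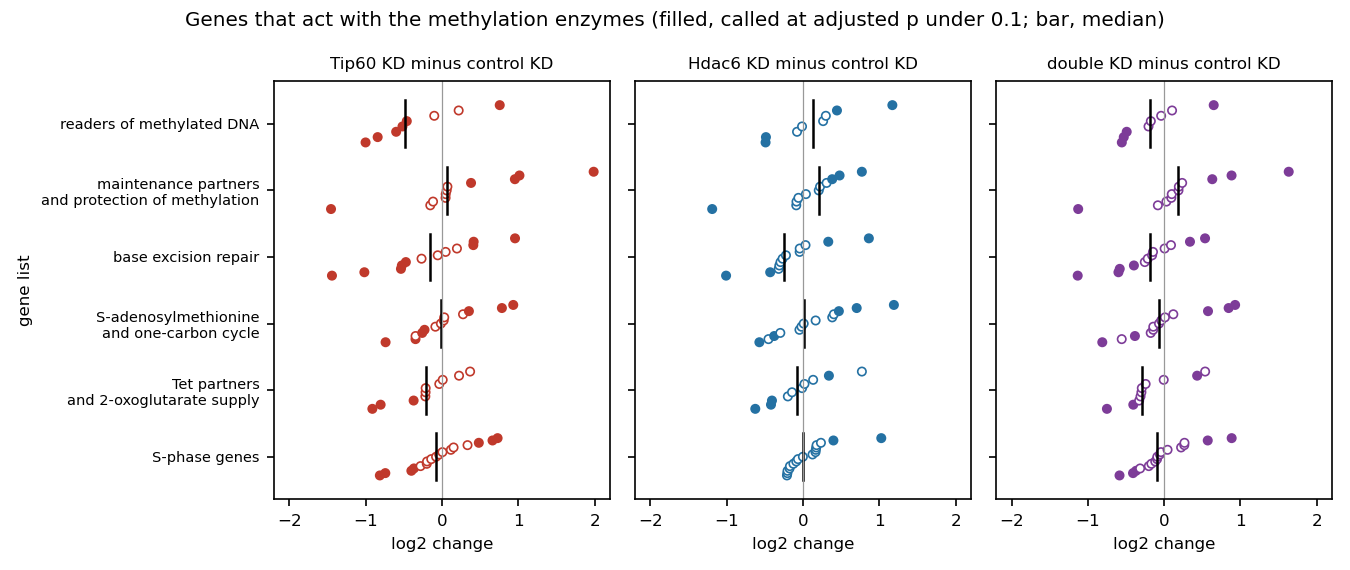
Each point is 1 gene of a list, with its log2 change against control KD on the x axis and the lists on the y axis, in 1 panel a knockdown. Filled points were called at an adjusted p under 0.1, open points were not, and bars mark the list's median. The reader list has its median at -0.49 in Tip60 KD, and the rightmost point of the partner list is Zfp57, at 1.99.

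Base excision repair, the step after Tdg, held 12 genes, of which 3 rose and 5 fell in Tip60 KD, 2 rose and 2 fell in Hdac6 KD, and 2 rose and 4 fell in double KD, beside 19.7% and 20.0%, 14.0% and 14.9%, and 15.9% and 16.9% of all genes. Apex1, the endonuclease that cuts the abasic site, rose by 0.96 in Tip60 KD (adjusted p = 0.00393), and Parp1, which binds the nick, by 0.41. The glycosylases Neil2, which can act after Tdg, and Mutyh fell by 1.44 (adjusted p = 0.00075) and 1.02 (adjusted p = 0.00225).

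Supply of the methyl donor S-adenosylmethionine was represented by 13 tested genes, of which 3 rose and 4 fell in Tip60 KD and 3 rose and 2 fell in each of the other knockdowns, beside 19.7% higher and 20.0% lower of all genes for the Tip60 hairpin, 14.0% and 14.9% for that against Hdac6, and 15.9% and 16.9% for both. Mat2a, which makes the donor, rose by 1.19 in Hdac6 KD (adjusted p = 0.002), from 3.36 and 3.20 in control KD to 4.42 and 4.51. Its arrays also lay above control KD in Tip60 KD, at 4.02 and 4.10, and in double KD, at 4.18 and 4.23. Mtr, methionine synthase, rose by 0.93 in Tip60 KD (adjusted p = 0.00338), from 1 array, since the spot on Tip60 KD array A carried an outlier mark, and the series matrix gave -0.30 (adjusted p = 0.811, range over the alternatives 0.000693 to 0.811). Gnmt, which uses up the donor, and Mthfd1, a folate enzyme, fell by 0.81 and 0.38 in double KD. Among 10 genes that bind Tet enzymes or supply their cosubstrate 2-oxoglutarate, none rose and 3 fell in Tip60 KD, 1 rose and 3 fell in Hdac6 KD, and 1 rose and 2 fell in double KD, against the same shares of all genes. The number that fell in Hdac6 KD ran from 0 to 5 over the 22 alternatives. Idh2, which makes 2-oxoglutarate in mitochondria, fell by 0.91 (adjusted p = 0.0043) in Tip60 KD, while D2hgdh rose by 0.43 in double KD (adjusted p = 0.0881, lost under 15 of 22 alternatives, range 0.00235 to 0.833) and Cxxc5 by 0.34 in Hdac6 KD (adjusted p = 0.0717, lost under 11 of 22, range 0.0225 to 0.285).

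Germline genes with CpG-rich promoters are known for being silenced by methylation in many cells, and were listed for this reason. This list, like the others, was chosen with earlier results of these data known. Methylation itself was not measured. Several of these genes gave clear signal in control KD. Mean log2 signals there were 3.32 for Rpl10l, 2.46 for Tuba3a, 1.90 for Sycp3, 1.80 for Dazl and 1.64 for Mael. Those of the other tested genes ran from 0.19 for Taf7l down to -2.34 for Sycp1. Whether methylation takes part in the changes below was not tested. Of 11 tested genes 9 fell and none rose in Hdac6 KD, where 14.9% of all genes fell and 14.0% rose. Their median log2 change was -0.68 against 0.03 for all genes. In Tip60 KD 1 rose and 5 fell (median -0.22), against 19.7% and 20.0% of all genes (median 0.06). In double KD none rose and 5 fell (median -0.26), against 15.9% and 16.9% of all genes (median 0.05). The number that fell in Hdac6 KD lay between 5 and 9 over the 22 alternatives. Some genes lay at or near the floor of -2.71 in Hdac6 KD, so their changes are less certain. These were Sycp1 (-2.71 and -2.66), Brdt (-2.71 on both arrays) and Slc25a31 (-2.71 on array A).

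Mael, of the piRNA pathway, read 1.60 and 1.68 with the GFP hairpin, 0.53 and 0.50 with that against Tip60, 0.38 and 0.37 with that against Hdac6, and 0.53 and 0.51 with both, and every knockdown array lay more than 1 log2 unit below both control arrays. Its log2 change in Hdac6 KD was -1.26 (adjusted p = 0.00152). Sycp3, of the meiotic chromosome axis, fell by 1.45 in Tip60 KD (adjusted p = 0.00276). Dazl, an RNA-binding protein of germ cells, read 1.92 and 1.68 with the GFP hairpin, 2.49 and 2.32 with that against Tip60, 1.16 and 1.07 with that against Hdac6, and 2.06 and 1.90 with both. It rose by 0.61 in Tip60 KD (adjusted p = 0.0136) and fell by 0.69 in Hdac6 KD (adjusted p = 0.015), and double KD overlapped control KD.

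**Figure D4:**
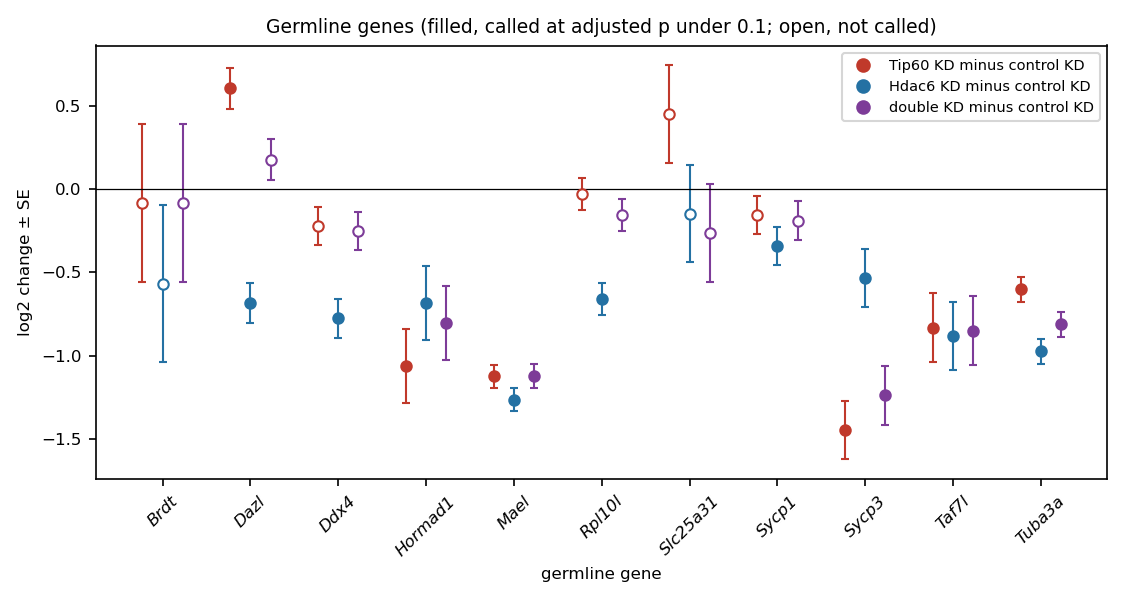
The y axis gives the log2 change against control KD with its SE for the 11 tested germline genes on the x axis, in red for Tip60 KD, blue for Hdac6 KD and purple for double KD. Filled points were called at an adjusted p under 0.1. In Hdac6 KD 9 of 11 points are filled and lie below 0, and Dazl in Tip60 KD, at 0.61, is the filled point above it.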

How the data were processed

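According to the labels and the methods, Cy3-labelled cRNA of each culture was hybridised to 1 Agilent whole-genome mouse array of 1 colour and read with Feature Extraction 10.7.1.1. The deposited scanner output gives, per the file headers, an intensity for every spot after the software had taken off background and a spatial trend, with no scaling across arrays. For the same hybridisations the authors also deposited log2 values in the series matrix, whose normalisation is not given in the sources used here. They ranked the spots as the median signals did (Spearman rho 1 on 8 arrays).

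Outlier spots (119 to 380 an array) were set to missing and spots of a probe averaged. Signals were divided by the array's 75th percentile, raised to a floor of 0.153 (log2 -2.71, taken from the array whose dimmest reliable spot was brightest) and converted to log2. The background an array lost sets how low it can read, so values near the floor are less certain. Of 39429 probes, 22594 were kept for exceeding both background and floor on 2 or more arrays, and the brightest probe stood for each of 18116 genes. RefSeq accessions gave current symbols to 27234 probes. No spot was saturated.

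Groups were compared with limma 3.58.1 in R 4.3.3, 2-sided, with all 4 groups in one fit and Benjamini-Hochberg adjustment over all genes. Calls have an adjusted p under 0.1. The number of arrays limits the precision (4 residual and 1.84 prior degrees of freedom). The 4 groups shared each slide, so letter, slide and scan coincide, and the letters paired the arrays (6 correlations of A minus B differences between groups across genes, 0.651 to 0.799). Each group kept its slide position, so position and group cannot be told apart. Python 3.11.15 and matplotlib 3.10.9 drew the figures.

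Named genes are all members and their probes, the targeted genes, the 2 largest increases and 2 largest decreases called in each related list, and the 3 genes most like a member spanning at least 1 log2 unit. Some list genes that were too dim to test or lay at the floor are named as well. A list gene named in 1 knockdown may have changed in the others too. Members and lists were chosen with earlier results of these data known. One gene that this rule names is not reported here.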

Additional observations from a re-analysis of the deposited data

How the results depend on the processing

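In all, 22 alternatives were run, of which the removal of the GC trend without a block was chosen after seeing the data. They gave 1373 values for single members in the 7 comparisons, of which 1226 kept their side of the threshold, 85 lost a call, 61 gained one and 1 reversed. The sign changed in 65 values, 64 of them not called in either fit. The remaining one was Dnmt3b in Tip60 KD, at 0.28 as the mean of all its probes. Mtr in Tip60 KD turned to -0.30 in the series matrix values. The cause was not tested.

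With the replicate block, members called against control KD numbered 7 for Tip60 KD and 4 for Hdac6 KD, double KD against Tip60 KD 4, double KD against Hdac6 KD 5 and the interaction 6. Calls over all genes rose under it from 7201, 5240 and 5939 to 11028, 9594 and 10046 against control KD, and from 672, 1829, 4251 and 3990 to 4751, 5331, 7526 and 8533 in the other 4 comparisons. With the replicate block and no GC trend, the counts were 4 for Tip60 KD (10604 genes in all, with adjusted p of 0.169 for Uhrf1 and 0.391 for Dnmt3l), 4 for Hdac6 KD, 4 and 4 for double KD against Tip60 KD and Hdac6 KD, and 5 for the interaction (in these last 4 comparisons 9265, 4304, 5365 and 8096 genes in all, and 9767 for double KD and 7307 for Tip60 KD against Hdac6 KD), and with the trend removed and no block 1 for Hdac6 KD and 0 for double KD against Tip60 KD, where 3 genes in all were called.

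For double KD against Tip60 KD, normexp, the series matrix, a low floor, only the arrays compared and an adjusted p under 0.05 gave 0 members (1, 111, 281, 0 and 65 genes in all), and the same background on every array and quantile normalisation gave 2. For double KD against Hdac6 KD, normexp, quantile normalisation, the series matrix, a low floor and an adjusted p under 0.05 gave 1 (1055, 1723, 1056, 1550 and 950 genes in all), and no filter on dim probes and only the arrays compared gave 0 (1591 and 0 genes in all). Tip60 KD against Hdac6 KD had 2411 genes with only the arrays compared, and the interaction 2516 at an adjusted p under 0.05. The interaction had 1 when values at the floor were set to missing, with probes well above background on all arrays and with the mean of all probes, and could not be fitted on fewer groups. Without a filter, double KD against control KD had 2. Without 1 array, counts ran from 2 to 3 (Tip60 KD), 1 to 2 (Hdac6 KD) and 1 to 3 (double KD) against control KD, and from 0 to 0 for double KD against Tip60 KD, 0 to 2 for double KD against Hdac6 KD, 3 to 4 for Tip60 KD against Hdac6 KD and 0 to 1 for the interaction. Calls over all genes were then as low as 2664 (Hdac6 KD) and 3749 (double KD), 0 and 156 for double KD against Tip60 KD and Hdac6 KD, 1963 for Tip60 KD against Hdac6 KD and 2004 for the interaction. A group left with 1 array is assumed to vary like the others, and Tet3 had no value without Tip60 KD array B. Signals near the floor, where 8.86% of gene values lay, limit what can be said of Tet3, the dim Tet2 probe, the dimmest germline genes and the size of the Dnmt3a fall in Tip60 KD.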
